A study of Mus musculus with 4 samples.

Results

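The cells described here were the 119 barcodes, of 53361 in the data, that carried the joining chain transcript Jchain and the endoplasmic reticulum chaperone transcript Mzb1 among the CD45+ leukocytes that the authors removed from EO771 mammary tumors. They were selected on measured values. A member was a barcode outside the cells the authors kept, with mitochondrial genes under 5% of its UMIs (unique molecular identifiers, 1 per captured transcript) and a hashtag count at least 3 times that of the other tumor of its run. It had more than 5 Jchain UMIs, at least 2 Mzb1 UMIs, 0 UMIs of Cd3d, Cd3e, Cd3g and Siglech, and fewer than 100 UMIs of S100a8 and S100a9 per 10000. Of the members, 99 had the transcripts of plasma cells, and the other 20 had little immunoglobulin RNA and were a mixed set, most of which went against that name, as given below.

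The tumors grew in the mammary fat pad of female mice and were taken at 1.5 cm3. There were 2 Csf1rfl/fl tumors and 2 Lyve1CreCsf1rfl/fl tumors, and both genotypes carried the floxed allele of Csf1r, the receptor on which most macrophages depend. Cre under Lyve1, a hyaluronan receptor gene of a macrophage subset that lymphatic endothelium also uses, deletes Csf1r in the second genotype. Cells of 1 tumor per genotype were pooled in each of 2 Chromium runs and carried hashtag antibodies to separate them, and ages were not given in the sources used here. Csf1r was at 0.902 and 0.964 UMIs per 10000 in the kept cells of the Csf1rfl/fl tumors and at 0.420 and 0.455 in those of the Lyve1CreCsf1rfl/fl tumors, in runs 1 and 2.

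Plasma cells are the end stage of the B lineage. A B cell that meets its antigen can exchange the constant part of its heavy chain, which changes the class of antibody without changing what it binds, and can multiply before it stops dividing. The transcription factors Blimp-1 (Prdm1), Xbp1 and Irf4 then switch off B cell genes and build the secretory apparatus through which antibody leaves the cell. Plasmablasts are the dividing, younger form of these cells.

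Nearly all members came from 1 tumor. The Csf1rfl/fl tumors held 5 members in run 1 and 6 in run 2, the Lyve1CreCsf1rfl/fl tumors 2 in run 1 and 106 in run 2. The last had 89.1% of the members (exact binomial 95% interval 82.0% to 94.1%), or 1.76% of its 6022 removed cells that passed the mitochondrial and hashtag limits. In the other tumors the shares of removed cells were 0.408%, 0.0544% and 0.382%, in the order Csf1rfl/fl run 1, Lyve1CreCsf1rfl/fl run 1 and Csf1rfl/fl run 2. As a share of all passing cells, kept ones included, members were 0.0536%, 0.0186% and 0.0643% in that order. In the Lyve1CreCsf1rfl/fl tumor of run 2 that share was 0.983%. The authors removed clusters because they came almost wholly from a single tumor, so this spread was used by the choice of members and is a description. They described these clusters as lymphocytes with high ribosomal gene expression. They also kept only barcodes flagged as singlets, and which of these steps removed a given member was not told apart here. None of the 27704 kept cells that passed the same limits met the gene thresholds. Whole clusters had been removed before, so this count describes the removal and not how rare such cells were. Both Lyve1CreCsf1rfl/fl tumors had the same genotype and stood at the opposite ends of the counts, and genotypes were not compared.

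**Figure D1:**
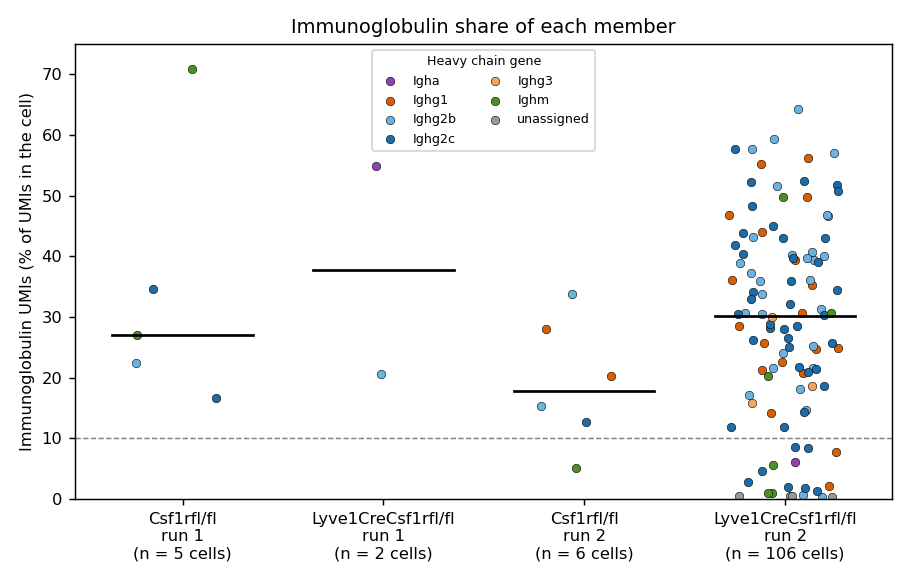
Immunoglobulin UMIs as a percent of each member's UMIs (vertical axis), by tumor, with 1 point per cell colored by its heavy chain gene, a line at each tumor's median and a dashed line at 10%. The Lyve1CreCsf1rfl/fl tumor of run 2 holds 106 of the 119 points and 19 of the 20 points under the dashed line.

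Members held 2308 to 60098 UMIs, with a median of 8936, and 501 to 6730 genes, with a median of 2101. Jchain ran from 6 to 885 UMIs per member with a median of 101, and Mzb1 from 2 to 142 with a median of 29. At the edge of the rule, 3 members had 6 or 7 Jchain UMIs and 5 cells just outside had 4 or 5, and immunoglobulin took 0.725% to 5.64% of the UMIs of the former and at most 1.19% in the latter. The hashtag ratio was between 3 and 4 in 6 members and between 2 and 3 in 9 cells outside, and 143 removed cells met the gene and mitochondrial limits without the hashtag limit. The 6 members of the Csf1rfl/fl tumor of run 2 had a median hashtag ratio of 4.40, against 20.6 in the Lyve1CreCsf1rfl/fl tumor of that run. Scrublet called 7 of the members doublets, 3, 2, 0 and 2 in the tumors in the order above, while it called 29.8% of all barcodes in run 1 and 11.0% in run 2. They were kept. The runs shared 200 barcode sequences, 2 of them those of members, and no sequence was a member in both runs.

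Immunoglobulin genes, 394 genes of the heavy, kappa and lambda loci with Jchain, made up 21.7% of all UMIs of the members (exact 95% interval 21.7% to 21.8%, counting error only). By tumor the share was 32.7%, 39.2%, 17.9% and 21.2%, in the order above. Per cell it ran from 0.307% to 71.0% with a median of 28.6%. In the Lyve1CreCsf1rfl/fl tumor of run 2 it was 1.07% in 1881 removed B cells, which were chosen for Ms4a1 and Ighd UMIs, 0.289% in 75 plasmacytoid dendritic cells, and 0.0425% in 1625 T cells. T cells make no antibody, so their level serves as a reference, and the source of these transcripts in them was not tested. In those T cells Jchain was at 0.0502 UMIs per 10000, Igkc at 1.44, Ighg2b at 0.0776 and Ighg2c at 0.114, in cells with a median of 5146 UMIs. The members of the same tumor, with a median of 8826 UMIs, had 87.2, 1090, 288 and 301.3 UMIs per 10000 of these transcripts, and for Jchain the rule itself fixed that they were higher.

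Members fell on both sides of a gap in the immunoglobulin share, between 8.54% and 11.8%. The 20 members below 10%, a limit chosen after the data were seen, are called low-immunoglobulin members here. They had a median of 24663 UMIs and 4115 genes, and the other 99 members had 8605 and 1858. Ms4a1, the B cell surface protein CD20 that plasma cells lose, had UMIs in 18 of the 20, with a median of 7, and in 24 of the 99, with a median of 0 and a highest value of 6. Pax5, the factor that holds B cell identity, was detected in 14 of the 20 and 3 of the 99. The germinal center factor Mef2b was detected in 14 of the 20 and 10 of the 99. H2-Aa, which presents antigen to T cells, had a median of 20.5 UMIs in the 20 and 1 in the 99. On the other side, Xbp1 was detected in 16 of the 20 and all 99, Sdc1, the surface marker CD138, in 6 and 69, and Derl3 in 8 and 76. Prdm1, in 9 and 40, and Eaf2, in 19 and 88, were detected in a share of the 20 no lower than that of the 99. Detection here was in cells with more UMIs. The median Eaf2 count was 3 UMIs in the 20 and 4 in the 99, so it was lower in the 20 for their depth. The median Prdm1 count was 0 in both. The 20 were mixed. Of them 4 had 0 or 1 Ms4a1 UMI, with 28 to 35 Xbp1 UMIs, 27 to 120 Jchain UMIs and Sdc1 in all 4, at immunoglobulin shares of 2.86% to 8.54%. The 14 members under 5% all had Ms4a1, with a median of 8.5 UMIs, against a median of 2.5 in the 6 between 5% and 10%. Between 5% and 15%, on both sides of the limit, there were 12 members, and 4 of the 20 shared a pair of variable segments with other members. The 20 are therefore called by their measured state, and Scrublet called 1 of them a doublet. The deeper sampling of these cells raises the chance to detect any gene, and its part in these counts was not tested.

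Kappa was the light chain called in 113 of the 119 members, and the heavy chain transcripts of the members were mostly of the IgG classes. The constant gene with most UMIs was Ighg2c in 46 members, Ighg2b in 34, Ighg1 in 21, Ighm in 9, Ighg3 in 3 and Igha in 2. Ighd and Ighe, the genes of IgD and IgE, led in 0 members. The remaining 4, all low in immunoglobulin, had fewer than 10 heavy chain UMIs or no gene with 60% of them. IgG classes thus took 104 of 115 assigned members, or 90.4% (exact 95% interval 83.5% to 95.1%, counting error only). IgM, the class made before switching, led in 9 members, 2 of them among the 5 of the Csf1rfl/fl tumor of run 1. Of the 9, 4 were low-immunoglobulin members, with 4 to 13 Ms4a1 UMIs, and the other 5 had 0 Ms4a1 UMIs.

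**Figure D2:**
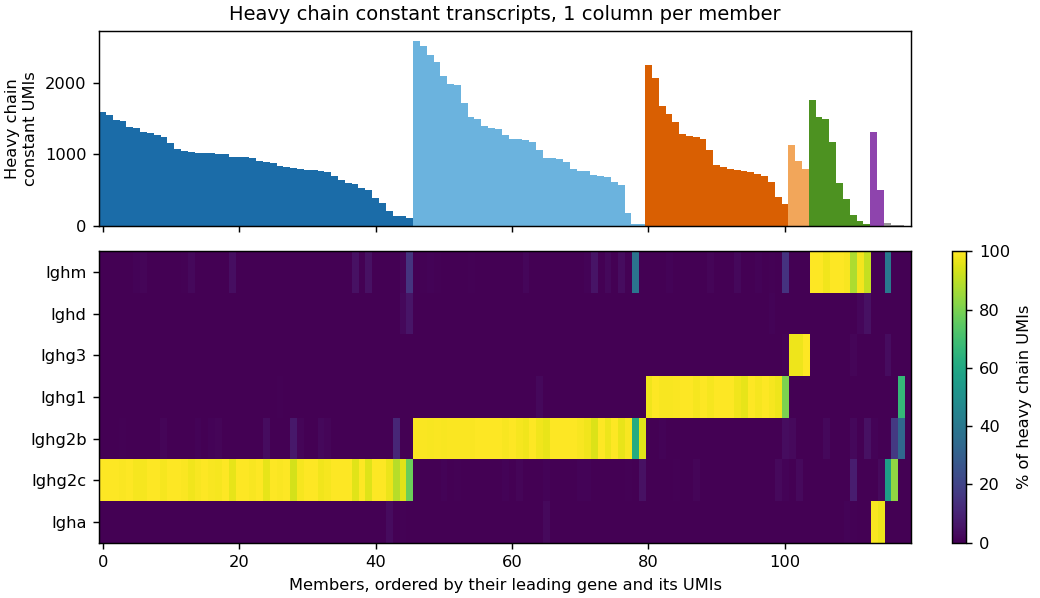
Heavy chain constant UMIs of each member (upper panel, linear axis, colored by leading gene) and the percent of those UMIs from each constant gene (lower panel, color scale), with 1 column per cell. Most columns hold 1 bright row, which matches the median of 99.3% of a cell's heavy chain UMIs from its leading gene, and the columns at the right end are the 4 unassigned members.

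Within a cell the leading gene stood nearly alone. It held a median of 99.3% of the cell's heavy chain UMIs, at least 95% in 107 members and 61.5% in the lowest assigned one. Members had a median of 940 heavy chain UMIs, from 0 to 2589. In members led by Ighg2b the median count of that gene was 1168 UMIs, in those led by Ighg2c 914 and in those led by Ighg1 844. The constant genes of the IgG classes are close copies of each other, and how the authors' counting treated reads that fit several of them was not given in the sources used here.

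Kappa was called in 113 members, or 94.96% (exact 95% interval 89.3% to 98.1%), lambda in 1, and 5 lay between, with 40% to 60% of their light chain constant UMIs from Igkc. Igkc had 171882 UMIs in the members, the largest total of the light chain constant genes. Iglc1 had 7539 UMIs, and 4 of the 5 cells in between had 1180, 1267, 1323 and 1860 of them beside 1366 to 2231 Igkc UMIs. The remaining one, low in immunoglobulin, had 6 Iglc1 and 19 Igkc UMIs. The lambda variable gene Iglv1 departed from the constant genes, with UMIs in 101 members, a median of 13 UMIs and 2548 of its 2591 UMIs outside the lambda cell. It stood at 16.7 UMIs per 10000 in the members of the Lyve1CreCsf1rfl/fl tumor of run 2 and at 0.00822 in the T cells of that tumor, and whether these transcripts were joined to a constant gene was not tested.

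The variable segment names the germline gene that was joined to make the antigen-binding end of a chain, so cells descended from 1 B cell share both segments. A 3 prime library reads the other end of the transcript, and a segment was assigned only with at least 5 UMIs and 60% of the locus. That was met for the heavy chain in 81 members, with 32 of 185 Ighv genes, and for the kappa chain in 97, with 30 of 160 Igkv genes. The most frequent heavy segments were Ighv1-50 in 8 members, Ighv14-2, Ighv14-4 and Ighv3-6 in 7 each, and Ighv1-69 in 6. Among kappa segments Igkv3-4 was found in 19 and Igkv17-127 in 17, followed by Igkv1-135 and Igkv15-103 in 7 each and Igkv19-93 in 6. Each of 15 heavy segments was seen in 1 member.

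Both segments were assigned in 77 members, which used 47 pairs. Of these cells, 41 shared their pair with another member, or 53.2%, in 11 pairs, and 36 cells had a pair of their own. Sharing depends on which other cells were sampled, so no interval is given. With a hashtag ratio of at least 10, which leaves fewer members, 24 cells shared a pair. The 4 most frequent pairs were Ighv3-6 with Igkv15-103 in 7 members, Ighv1-50 with Igkv17-127 in 6, Ighv14-4 with Igkv17-127 in 5 and Ighv8-12 with Igkv3-4 in 5. The germline ends of 5 segments of the first 3 pairs and of Ighv14-2, a relative of Ighv14-4, are printed below, since a pair can only be read where its segments differ from their nearest relatives. Each line gives the last 90 coding bases of the germline gene in the GENCODE vM21 transcripts of mm10, with the codon of the last cysteine, where the binding loop begins, in capitals.
Ighv3-6: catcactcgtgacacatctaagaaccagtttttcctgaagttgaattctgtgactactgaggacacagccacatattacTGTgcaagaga
Igkv15-103: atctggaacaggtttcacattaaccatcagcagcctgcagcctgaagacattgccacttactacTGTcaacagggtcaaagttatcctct
Ighv1-50: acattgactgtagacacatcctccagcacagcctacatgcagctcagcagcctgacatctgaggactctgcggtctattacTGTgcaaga
Igkv17-127: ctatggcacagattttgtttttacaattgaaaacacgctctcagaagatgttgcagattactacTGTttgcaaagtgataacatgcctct
Ighv14-4: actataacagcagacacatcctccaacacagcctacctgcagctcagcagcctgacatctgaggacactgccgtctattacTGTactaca
Ighv14-2: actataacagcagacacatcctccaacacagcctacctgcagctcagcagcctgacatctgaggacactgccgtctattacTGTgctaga

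On mm10 these genes lie at chr12:114288152-114288582 (Ighv3-6), chr12:115119748-115120219 (Ighv1-50), chr12:114176438-114176867 (Ighv14-4) and chr12:113994469-113994898 (Ighv14-2), all on the minus strand, and at chr6:68437440-68437925 (Igkv15-103) and chr6:67861153-67861659 (Igkv17-127) on the plus strand. Igkv15-103 was 75.1% identical to its nearest relative over its coding bases and Ighv3-6 91.7%, so the most frequent pair rested on well separated genes. Ighv1-50 was 97.2% identical to Ighv1-69, Igkv17-127 97.5% to Igkv17-121, and Ighv14-4 and Ighv14-2 were 97.4% and 97.2% identical to Ighv14-1, which was itself assigned in 2 members. Ighv14-4 and Ighv14-2 were 95.7% identical. Igkv3-4, the most frequent kappa segment, was 94.2% identical to Igkv3-3, and Ighv8-12 was 94.7% identical to Ighv8-9. The share of Igkv3-4 within its locus was as low as 60.9% in an assigned member. Reads of such genes can be counted to a relative, and members with any of these segments are less certain. Ighv1-69 was assigned in 6 members and Igkv17-121 in 5, so the pairs of Ighv1-50 with Igkv17-127 and of Ighv1-69 with Igkv17-121 were close relatives at both loci.

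**Figure D3:**
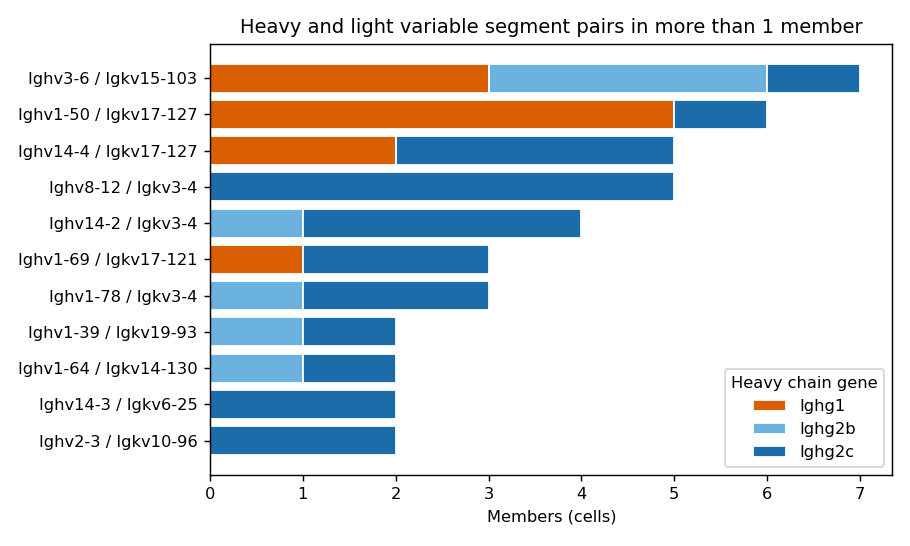
Members (horizontal axis, cells) for each of the 11 pairs of heavy and kappa variable segments found in more than 1 member, split by heavy chain gene. The longest bar holds 7 cells of 3 IgG classes, and 8 of the 11 bars hold more than 1 color.

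Cells that shared a pair could differ in class. Of the 11 shared pairs, 8 held more than 1 heavy chain gene. The members as a whole were also mixed, with 46 of Ighg2c, 34 of Ighg2b and 21 of Ighg1. Whether cells with a shared pair differed in class more or less often than other members was not tested. The 7 cells with Ighv3-6 and Igkv15-103 were 3 of Ighg1, 3 of Ighg2b and 1 of Ighg2c, all in the Lyve1CreCsf1rfl/fl tumor of run 2, with 7 to 85 Ighv3-6 UMIs and immunoglobulin shares of 30.6% to 56.2%. The 6 cells with Ighv1-50 and Igkv17-127 were 5 of Ighg1 and 1 of Ighg2c. The 5 with Ighv8-12 and Igkv3-4 were all of Ighg2c, and 4 of them were the cells above with 1180 to 1860 Iglc1 UMIs. The fifth had 73 Iglc1 UMIs. Joining sequences and mutations are not in counts per gene, so cells with the same pair may or may not descend from 1 cell.

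In 2 of the 11 pairs, members of both tumors of run 2 were found. With Ighv14-4 and Igkv17-127 there were 4 cells of the Lyve1CreCsf1rfl/fl tumor and 1 of the Csf1rfl/fl tumor, and with Ighv1-69 and Igkv17-121 there were 2 and 1. The Csf1rfl/fl cells had hashtag counts of 162 against 38 and 751 against 47 for the 2 hashtags. They also carried 34 and 55 UMIs of macrophage, NK cell, tumor and stromal markers, of which 5 of the 6 members of that tumor had at least 3, with a median of 37.5, and 26 of 106 in the Lyve1CreCsf1rfl/fl tumor of run 2, with a median of 1. No shared pair remained among the 13 members outside the Lyve1CreCsf1rfl/fl tumor of run 2. The part of hashtag assignment and of these markers in the pairs was not tested.

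Cell cycle transcripts were found in many members. A member was called cycling with at least 3 UMIs over Mki67, Top2a, Ccnb1, Ccnb2, Cdk1, Birc5, Tpx2 and Cenpf, all genes of division. This was met by 55 of 119 members, or 46.2% (exact 95% interval 37.0% to 55.6%), which were 3 of 5, 0 of 2, 2 of 6 and 50 of 106 in the tumors in the order above. All 20 low-immunoglobulin members and 35 of the other 99, or 35.4%, were cycling. In the Lyve1CreCsf1rfl/fl tumor of run 2, 12 of 1881 removed B cells (0.638%) and 1 of 75 plasmacytoid dendritic cells met the same limit. Since B cells were shallower, with a median of 1957 UMIs, each cell was thinned to 1500 UMIs outside immunoglobulin genes, which left out 1 member and 354 B cells. At least 1 UMI of the 8 genes was then found in 53.3% of that tumor's members, 6.55% of the B cells and 2.67% of the plasmacytoid dendritic cells. Over all tumors it was found in 42.9% of the members above 10% immunoglobulin and in 85% of the 20 below. Mki67, a protein of dividing nuclei, was at 6.96 UMIs per 10000 outside immunoglobulin genes in the members of that tumor, and at 0.36 in its B cells.

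**Figure D4:**
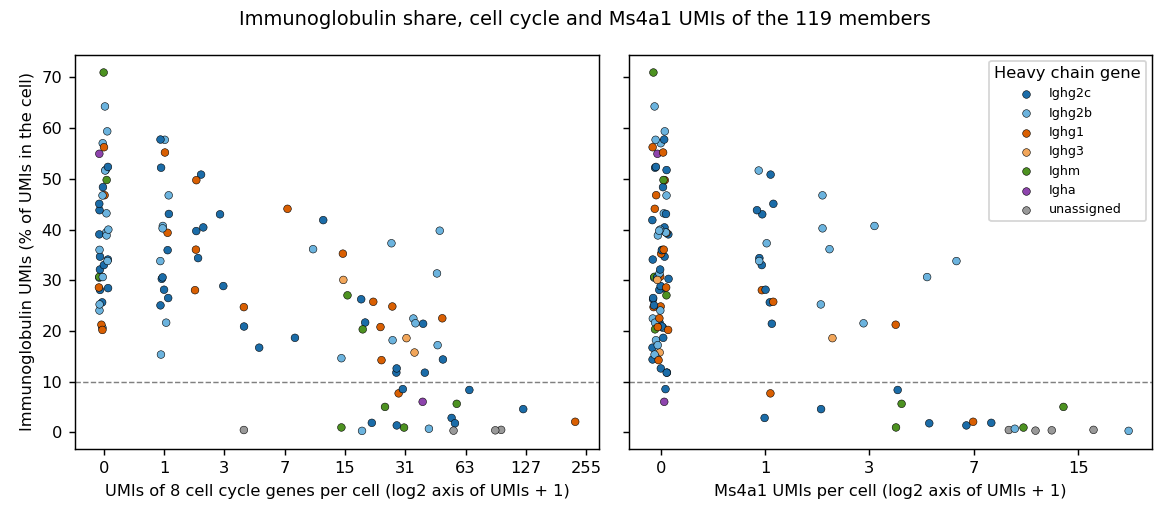
Immunoglobulin share of each member (vertical axis) against its UMIs over 8 cell cycle genes (left) and its Ms4a1 UMIs (right), both horizontal axes as log2 of UMIs + 1, with 1 point per cell colored by heavy chain gene and a dashed line at 10%. The 20 points under the line all lie to the right in the left panel, at 4 to 215 cell cycle UMIs, and most lie to the right in the other.

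The immunoglobulin share of cycling members was set beside that of the others. In the Lyve1CreCsf1rfl/fl tumor of run 2, 56 members that were not cycling had a median immunoglobulin share of 39.4%, from 21.2% to 64.3%. The 50 cycling members had a median of 16.5%, from 0.307% to 44.1%, and the 31 of these above the 10% limit had 21.7%. The ranges overlapped. The call uses raw UMIs, so a cell with more UMIs of other genes passes it more easily. With cycling called as at least 1 UMI after thinning to 1500 UMIs outside immunoglobulin genes, an alternative added after the data were seen, the median shares were 35.9% in 51 members and 21.2% in 54, and above the limit 36.1% in 47 and 26.3% in 39. The median count of immunoglobulin UMIs was 2930 and 2735 in members above the limit that were not cycling and that were, while that of other UMIs was 4372 and 8344, so the medians lay further apart in other UMIs than in immunoglobulin UMIs. Outside immunoglobulin genes, Xbp1 was at 32.1 UMIs per 10000 in the members that were not cycling and at 24.8 in the cycling members above the limit. Hspa5, the chaperone BiP, was at 46.9 and 28.9, and Prdm1 was nearly level at 0.990 and 1.02. Slpi, a secreted protease inhibitor, was at 310.4 and 157, and Ly6c2, a surface protein, at 82.3 and 32.8.

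To see which programs the members used, their summed UMIs in the Lyve1CreCsf1rfl/fl tumor of run 2 were compared with those of the removed B cells and the kept plasmacytoid dendritic cells of that tumor. Immunoglobulin genes were left out of the totals, since they fill a large share of the members only. With 1 tumor a side there is no test, and a gene was called past 2-fold. The rule used few of these genes, Mzb1 among them. The authors' clustering, on which their removal partly rested, drew on the expression of many genes. Each log2 ratio has 0.5 UMI added to each sum. Of 7816 genes with at least 50 UMIs over the 2 sums together, 16.3% were higher in the members than in B cells and 19.7% lower, 1277 and 1539 genes. With all UMIs as the total, 816 were higher and 2266 lower, since every log2 ratio then moved by -0.33. The 20 low-immunoglobulin members, 19 of them in this tumor, gave 45.8% of the UMIs of the members' sum outside immunoglobulin genes there. Against plasmacytoid dendritic cells, which also secrete on a large scale, 18.6% of 3837 genes were higher and 17.8% lower, 712 and 684 genes, and with all UMIs as the total 479 and 979, with a shift of -0.34. Without low-immunoglobulin members, which also left fewer UMIs to reach the limit, 436 were higher and 608 lower.

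**Figure D5:**
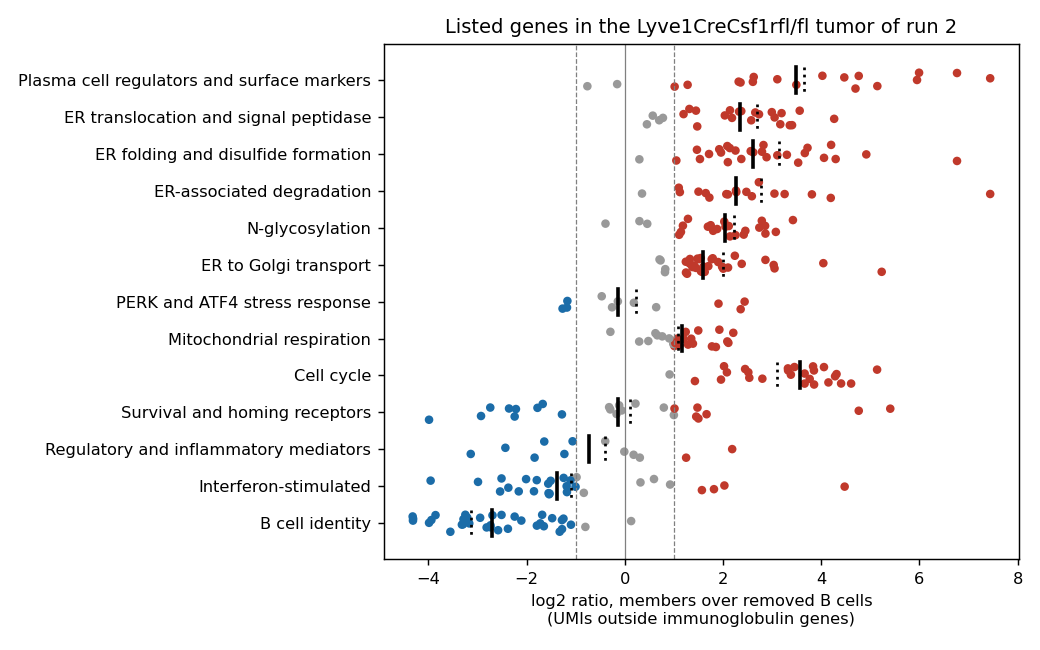
Log2 ratio of the members to the removed B cells (horizontal axis, UMIs outside immunoglobulin genes) for the tested genes of 13 lists in the Lyve1CreCsf1rfl/fl tumor of run 2, with 1 point per gene, colored past 2-fold, a solid line at each list's median and a dotted line at the median without low-immunoglobulin members. The secretory lists lie to the right of 0, with medians of 1.59 to 2.62, and B cell identity lies to the left, with a median of -2.69.

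Of the regulators and surface markers of plasma cells, 17 of 19 tested genes were higher in the members than in B cells, and 0 were lower, with a median log2 ratio of 3.49. Xbp1 was at 18.3 UMIs per 10000 in the members and 0.70 in B cells, a log2 ratio of 4.70. By tumor, the members had 12.7, 17.6, 11.95 and 18.3 Xbp1 UMIs per 10000, so it was present in all. Prdm1 was at 0.904 and 0.0796 (log2 ratio 3.49) and Irf4, which B cells also use, at 2.18 and 1.08 (1.02). The elongation factor genes Ell2 and Eaf2, which serve the switch to secreted heavy chain, had log2 ratios of 4.02 and 5.95. Sdc1 was at 1.38 and 0.06 (4.47). Tnfrsf17, the survival receptor BCMA, had 28 UMIs in 11 members and 0 in B cells, at least 40.8-fold higher by the limit of 3 counts, and the tumors in the order above had 12, 2, 1 and 28 UMIs. Zbtb20 and Glcci1 were the tested genes of the list within 2-fold, at -0.76 and -0.16. With plasmacytoid dendritic cells as reference, 16 of 19 were higher, with a median of 3.14.

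B cell identity genes were low. Of 35 tested genes of the list, 33 were lower than in B cells and 0 higher, with a median of -2.69. Pax5 was at 0.487 UMIs per 10000 in the members and 4.42 in B cells, a log2 ratio of -3.17, and -5.74 without low-immunoglobulin members. Ebf1, a partner of Pax5, was at 0.924 and 13.4 (-3.85), and Cr2 and Fcer2a, receptors of mature B cells, both had a ratio of -4.31. Cd79a, a signaling chain of the B cell receptor, was at 4.22 and 18.2 (-2.11). Cd74 and H2-Aa, of antigen presentation, were at -1.65 and -2.38. Blnk (0.13) and Btk (-0.80), both of B cell receptor signaling, were within 2-fold.

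Genes that bring proteins into the endoplasmic reticulum were higher in 20 of 24 and lower in 0, with a median of 2.35. Sec61b, a subunit of the channel, was at 26.9 UMIs per 10000 and 3.25 in B cells, a log2 ratio of 3.05, with UMIs in all 119 members. Ssr4, beside the channel, was at 12.2 and 1.03 (3.56), and Sec11c, the signal peptidase, at 15.2 and 1.48 (3.36). Relative to plasmacytoid dendritic cells, 15 of 23 were higher, with a median of 1.16.

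Of the folding genes, 26 of 27 were higher and 0 lower, with a median of 2.62. Hsp90b1, the chaperone GRP94, led in level, at 72.0 UMIs per 10000 and 3.67 in B cells (log2 ratio 4.29), and by tumor the members had 49.8, 25.8, 28.5 and 72.0. Hspa5 was at 26.9 and 6.10 (2.14), and by tumor at 14.8, 11.4, 16.3 and 26.9, so the run 2 Lyve1CreCsf1rfl/fl members were highest in both. The disulfide isomerase Pdia4 was at 11.1 and 1.13 (3.30), Manf at 11.5 and 0.87 (3.72), and Creld2 at 4.29 and 0.14 (4.92). Fkbp11, a prolyl isomerase, was at 4.82 and 0.0432, with a ratio of 6.77. In the second comparison 22 of 27 were higher, with a median of 1.51.

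Genes that degrade misfolded proteins were higher in 17 of 18 and lower in 0, with a median of 2.27. Derl3, of the channel that takes proteins out, had 258 UMIs in the members and 6 in B cells, a log2 ratio of 7.44, and Edem1, which recognizes trimmed sugars, was at 8.84 and 0.48 (4.19). Sugar-adding genes were higher in 21 of 24, with a median of 2.04, led by Rpn1 of the transferase at 7.94 and 0.74 (3.42). Genes of transport to the Golgi were higher in 30 of 34, with a median of 1.59. The cargo receptor Lman1 was at 4.21 and 0.25 (4.04) and the coat gene Sec24d at 1.06 and 0.03 (5.23). Against plasmacytoid dendritic cells, 10 of 17, 9 of 19 and 11 of 32 of these lists were higher, with medians of 1.17, 0.98 and 0.81. Without low-immunoglobulin members 14, 15 and 21 were higher.

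The PERK and ATF4 branch of the stress response, in contrast to the chaperones, was mixed. Of 11 tested genes, 3 were higher and 3 lower, with a median of -0.14, and without low-immunoglobulin members 4 and 0. Atf4 itself was at 2.44 UMIs per 10000 in the members and 2.70 in B cells (-0.14), Ddit3, the death-linked factor CHOP, at 0.50 and 0.69 (-0.47), and Ppp1r15a at -1.27. The serine synthesis genes Phgdh and Psat1 were at 2.44 and 2.36, and at 2.23 and 1.08 without low-immunoglobulin members.

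Some promoters of the folding genes held the ER stress response element, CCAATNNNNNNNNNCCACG, to which the factors ATF6 and NF-Y bind and, at its last letters, XBP1. The letters were searched on both strands of RefSeq promoters, 250 bases before to 50 after the start, on GRCm38.p6, and 37 of 27025 promoters, or 0.137%, held them. Of the folding genes with a promoter in the table, 8 of 23 did (Hspa5, Hsp90b1, Pdia6, Calr, Canx, Dnajc3, Creld2 and Ero1lb, which RefSeq names Ero1b), and of the degradation genes 2 of 16 (Derl3 and Syvn1). Ero1lb was the folding gene within 2-fold of B cells, with a log2 ratio of 0.30. None of the 17 translocation, 19 sugar-adding, 30 Golgi transport and 24 B cell identity genes did. Shown are 4 examples from genes that were high in the members, on the gene's strand with the element in capitals. In Creld2 and Derl3 it reads in the opposite orientation.
Hspa5: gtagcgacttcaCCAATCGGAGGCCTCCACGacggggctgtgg
Hsp90b1: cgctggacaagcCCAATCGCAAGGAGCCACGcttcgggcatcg
Creld2: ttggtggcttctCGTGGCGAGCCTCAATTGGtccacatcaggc
Derl3: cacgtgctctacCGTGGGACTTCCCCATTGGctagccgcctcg

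These windows are chr2:34772013-34772055 (Hspa5, plus strand), chr10:86705626-86705668 (Hsp90b1, minus strand), chr15:88819508-88819550 (Creld2, plus strand) and chr10:75893230-75893272 (Derl3, plus strand). The element ended 46, 193, 107 and 137 bases before the start, and Hsp90b1 held another copy 88 bases before it. Binding was not measured, and a match is a description of the letters.

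The cell cycle list was higher than in B cells in 25 of 26 genes and lower in 0, with a median of 3.56, and 3.11 without low-immunoglobulin members. Of the replication genes, Mcm3, Mcm5 and Mcm6 had ratios of 2.08, 1.96 and 2.02, which were 0.28, 0.18 and 0.76 without those members. The mitosis genes Ube2c and Cdc20 kept 4.38 and 3.92 without them, from 4.31 and 4.15. The germinal center list had 6 tested genes, 3 higher and 1 lower with a median of 1.39, and without low-immunoglobulin members 2 were higher and 3 lower, with a median of -0.38. Nuggc, a nuclear GTPase, was at 4.37 and 4.79 without low-immunoglobulin members, and Mef2b at 3.83 and 2.30.

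Respiration genes were higher than in B cells in 16 of 24 and lower in 0, with a median of 1.16. Ndufa1 of complex I was at 8.08 UMIs per 10000 and 1.75 (2.21), and the electron carrier Cycs at 3.98 and 0.92 (2.11). In the comparison with plasmacytoid dendritic cells 3 of 24 were higher, with a median of 0.54.

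Receptors for survival and homing moved in both directions, with 7 of 24 tested genes higher and 9 lower. Cxcr3, which guides cells to interferon-induced chemokines, had 82 UMIs in 38 members and 8 in B cells (log2 ratio 5.41), and Cd28, a costimulatory receptor, was at 1.26 and 0.05 UMIs per 10000 (4.76). Ccr10, a receptor of mucosal homing, had 21 UMIs in the members of that tumor and 0 in B cells, at least 30.6-fold higher. The lymph node receptors Ccr7, S1pr1 and Cxcr5 were lower, at -3.99, -2.93 and -2.24, and so was Klf2, which controls exit from lymphoid organs, at -2.22. Cxcr4, the receptor that holds plasma cells in bone marrow, was at 0.59 and 2.03 (-1.78). Of the apoptosis genes, Bcl2 was at -2.74, Bcl2l1 at 1.67 and Mcl1 at -0.11.

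Of 12 tested genes of the list of regulatory mediators, 2 were higher than in B cells and 6 lower. Lgals1, the lectin galectin-1, had UMIs in 87 of the 119 members and the chemokine gene Ccl4 in 30, while the suppressive cytokine Il10 had UMIs in 7 and Ebi3 in 10. Il10 and Ebi3 had only 10 UMIs each in the run 2 Lyve1CreCsf1rfl/fl members, and 0 and 2 in its plasmacytoid dendritic cells, too few for that comparison. In the Lyve1CreCsf1rfl/fl tumor of run 2, Lgals1 was at 2.54 UMIs per 10000 in members and 1.07 in B cells (log2 ratio 1.25), and Ccl4 at 0.695 and 1.64 (log2 ratio -1.23). Tgfb1 was at 0.49 and 1.76 UMIs per 10000 (-1.84), Cd274, the ligand PD-L1, at 0.31 and 0.65 (-1.06) and Vsir, the checkpoint VISTA, at 0.49 and 0.11 (2.19). Interferon-stimulated genes were mostly lower, 19 of 28, with 4 higher and a median of -1.38. Ifit3, an antiviral effector, was at 0.08 and 1.31 (-3.95), while Ly6c2 was at 32.3 and 1.45 (4.48) and Isg20, a nuclease, at 2.79 and 0.68 (2.03).

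Outside these lists, the genes furthest above B cells included Slpi, at 135.5 UMIs per 10000 against 0.296, a 458-fold difference, and Prg2, an eosinophil granule protein gene, with 186 UMIs in 32 members and 0 in B cells, at least 270.9-fold higher. Pon3, a lactonase, was 173.7-fold higher. Bhlha15, the secretory cell factor Mist1, had 75 UMIs against 3, at 0.745 UMIs per 10000 in the members and 0.00682 in B cells (exact Poisson 95% interval 0.00141 to 0.0199). By tumor, Slpi was at 21.4, 0, 353.6 and 135.5 UMIs per 10000 outside immunoglobulin genes in the members, with UMIs in 3 of 5, 0 of 2, 6 of 6 and 94 of 106 cells, and 1 cell held 100 of 116 Slpi UMIs in the first and 1687 of 3107 in the third. Without the highest cell of each tumor the values were 3.66, 0, 179 and 129. T cells had 0.685, 0.327, 0.319 and 0.228 Slpi UMIs per 10000. Prg2 was at 2.58, 2.07, 0 and 1.85. Among the genes furthest below B cells, the chemokine receptor Ccr6 had 0 UMIs in the members and 297 in B cells, at least 22.7-fold lower, and Rasgef1b 0 and 572, at least 43.6-fold lower.

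Against plasmacytoid dendritic cells the markers of those cells were lower in 6 of 6 tested genes, with a median of -9.80, leaving out Siglech and Bst2, which chose the cells. Ccr9 and Cd300c had 0 UMIs in all members. Fkbp11 and Derl3 had 485 and 258 UMIs in the members and 0 in the plasmacytoid cells, at least 67.8-fold and 36.1-fold higher. Pou2af1, a B-lineage coactivator, had 382 UMIs in the members and 1 in the plasmacytoid cells. The cell cycle list was higher in 25 of 26 genes (median 2.52) and B cell identity in 7 of 23 with 5 lower (median 0.47). Without low-immunoglobulin members the cell cycle list had 19 higher, and B cell identity 5 higher and 6 lower with a median of -0.19. Interferon-stimulated genes other than Bst2 were lower in 11 of 20 with 1 higher, mediators in 6 of 8 and survival and homing receptors in 8 of 17 with 4 higher.

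The classes were also set side by side. In the Lyve1CreCsf1rfl/fl tumor of run 2, above the 10% limit, there were 36 members of Ighg2c, 28 of Ighg2b, 17 of Ighg1 and 3 of Ighm, and another 3 of Ighg3 are not described here. Xbp1 was at 27.1, 29.3, 27.1 and 22.3 UMIs per 10000 outside immunoglobulin genes in that order. Slpi was at 251, 211, 313 and 25.4, but single cells ran from 0 to 1177 within Ighg2c alone. Ly6c2 was at 66.6, 49.3, 42.4 and 60.1. Cells of 1 tumor are not replicates and the classes were not tested.

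Markers of other cells were absent or few in most members and high in some. At least 3 UMIs over the list were found in 5 members for 5 neutrophil genes, with 133 UMIs in the highest cell, in 18 for 12 macrophage genes, with up to 86, in 10 for 7 dendritic cell genes, in 4 for 6 NK cell genes, with up to 106, in 3 for 7 T cell genes and in 0 for 5 erythroid genes. These counts leave out S100a8, S100a9, Cd3d, Cd3e and Cd3g, which the rule limited, and with S100a8 and S100a9 the neutrophil count was 36. Macrophage genes reached 3 UMIs in 3 of 5, 1 of 2, 4 of 6 and 10 of 106 members of the tumors in the order above, with medians of 5, 1.5, 22.5 and 0 UMIs. Over macrophage, NK cell, tumor and stromal genes together, 35 of 119 members had at least 3 UMIs. Cd4 and Cd8a were at 0 in all members, as were 7 of 9 tumor and stromal markers, collagens and keratins included. Of the remaining stromal markers, the epithelial adhesion gene Epcam had 46 UMIs in 35 members, at most 3 in a cell. The plasmacytoid list, whose genes B-lineage cells partly share, had at least 3 UMIs in 110 members. Members of the tumors had 5, 0, 9 and 4 Csf1r UMIs in the order above. The part of these transcripts in the results was not tested.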

How the data were processed

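CD45+ cells of 4 tumors were profiled with the Chromium 3 prime kit v2. The authors aligned reads to mm10 with Cell Ranger 6.0.1 and deposited counts of UMIs per gene (32285 genes) and of hashtags per barcode, and a table of corrected values from SCTransform in Seurat, whose whole-number scores (18449 genes) served here only to mark the 28429 kept barcodes. A deposited table of other content names the hashtag of each tumor. The members held 1480006 UMIs, but these came from 119 cells, 106 of them of 1 tumor. Precision is limited by the few tumors and cells, whose variation the counting intervals leave out.

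The members and the gene lists were chosen with earlier results of these data known. Removed B cells had at least 1 Ms4a1 and 1 Ighd UMI and at most 5 Jchain UMIs, kept plasmacytoid dendritic cells at least 2 Siglech and 1 Bst2 UMI, and kept T cells at least 3 Cd3 UMIs, each with 0 UMIs of the other excluded markers. Log2 ratios used 0.5 UMI added to each sum. Light chains were kappa with over 60% Igkc of at least 10 constant UMIs and lambda with under 40%. Scrublet (scanpy 1.11.5, expected rate 0.2) was run per run and its calls were kept in. Intervals are exact binomial or Poisson at 95% and cover counting error only. The ratio script was tested on simulated counts. Genes named were those of 24 lists (416 genes, 6 not in the table), the 15 highest and 15 lowest ratios of each comparison, and the constant genes and leading variable segments. Python 3.11.15, numpy 2.4.6, scipy 1.17.1 and pandas 2.3.3 were used.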

Additional observations from a re-analysis of the deposited data

How the results depend on the processing

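Of 119 alternative values, 108 stayed within the limits set for no change and 11 moved. Some of them could not move. No kept cell met the gene thresholds, so including kept cells left every value as it was. Leaving out a tumor with few members could change little. The 2 totals are therefore a description and do not measure how stable the results are. Members were compared with B cells and plasmacytoid dendritic cells within 1 tumor only. All 4 tumors held cells of each kind, so a fit paired within tumor could have been made, and it was not run. Leaving out 1 tumor in turn gave 13 to 117 members, IgG in 69.2% to 91.8%, kappa in 94.7% to 100%, 0 to 41 cells in shared pairs, cycling in 38.5% to 47.0% and an immunoglobulin share of 21.1% to 25.4%. The extremes of 13 members, 69.2%, 100% and 0 cells came without the Lyve1CreCsf1rfl/fl tumor of run 2, which held most members. Without members under 10% immunoglobulin, an alternative chosen after the data were seen, 35.4% were cycling and 436 genes were higher than in plasmacytoid dendritic cells. With at least 10 UMIs in the 2 sums, which tests more genes, 1634 were higher and 1914 lower than in those cells, and 1995 higher than in B cells. With UMIs of all genes as the total, 816 were higher than in B cells. With a hashtag ratio of at least 10, 24 cells shared a pair, from fewer members. Thinning, and a limit of 5 cell cycle UMIs for the difference in immunoglobulin share between cycling and other members, were also added after the data were seen. Most values rest on 1 tumor, so no spread between tumors stands behind them.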
